A study of Homo sapiens and Mus musculus with 21 samples.

Results

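The IP3 receptors and the mitochondrial calcium entry channels were taken as 7 genes, by gene symbol: ITPR1, ITPR2, ITPR3, VDAC1, VDAC2, VDAC3 and MCU in the human tables and their title-case orthologs in the mouse table. All 7 were found among 60674 human and 41214 mouse genes, and all 7 had enough counts to be tested in each table. IP3 receptors are calcium channels of the endoplasmic reticulum that open when inositol trisphosphate binds. Where that membrane lies against a mitochondrion, the released calcium crosses the outer membrane through the VDAC channels and the inner membrane through the uniporter, whose pore is MCU. The flow sets mitochondrial metabolism and, in excess, triggers apoptosis. BAP1, a deubiquitinase lost in many mesotheliomas (tumours of the pleural lining), has been described at the endoplasmic reticulum as a stabiliser of the ITPR3 protein. Only RNA was measured here, so protein amounts were not analysed here.

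Poly-A RNA sequencing counts were collected for 21 libraries. In the hairpin table, the human mesothelioma lines H2810 and MSTO-211H carried a BAP1 shRNA (shBAP1) or a random shRNA, with 2 libraries per line and hairpin. In the drug table, H2731 (labelled BAP1 mutated) and H2810 (labelled BAP1 wildtype) received GSK126, an inhibitor of the histone methyltransferase EZH2, or the vehicle DMSO, with 2 libraries per line and treatment. The mouse mesothelioma cells were 3 libraries of BNC cells (Bap1-/-, Nf2-/-, Cdkn2ab-/-) and 2 of NC cells (Nf2-/-, Cdkn2ab-/-), so both genotypes are labelled as lacking Nf2 and Cdkn2ab. Each human line is 1 line, and the sources used here give no hairpin sequence, dose, treatment time, mouse strain or age, nor whether libraries came from separate cultures or animals. The p-values therefore measure the spread between these libraries, which may be technical. For each gene that spread was estimated jointly over all groups of a table, so the spread of either line enters the p-values of the other.

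Library totals ran from 13693927 to 23217215 counts. BAP1 itself was at 13.4 and 20.3 CPM (counts scaled to a common library size, adjusted by TMM factors) in H2810 with shBAP1, against 114.8 and 116.9 with the random hairpin. In MSTO-211H it was at 15.4 and 17.7 CPM with shBAP1, against 100.1 and 102.7 with the random hairpin. Mouse Bap1 was at 30.5, 33.2 and 44.1 CPM in BNC cells, against 60.2 and 62.0 in NC cells, so reads of the gene remained in cells labelled as lacking it. Nf2 was at 181.1, 176.9 and 82.5 CPM in BNC cells, against 116.6 and 120.7 CPM in NC cells, which does not show the labelled loss in either genotype. Which part of either gene was deleted is not analysed here. Cdkn2a was at most 0.303 CPM and Cdkn2b at 0 in all 5 mouse libraries. H2731 with DMSO had 70.4 and 68.9 CPM of BAP1, against 148 and 144 in H2810 with DMSO. Of 10 mesothelial markers, 6 or 7 reached 1 CPM in every library of each human group, 2 did so across the BNC libraries and 8 across the NC libraries. The uroplakin UPK1B was near 0 in the human lines, and Calb2, which encodes calretinin, was at 0 in all mouse libraries. BNC replicates 4 and 5 were close to each other, and BNC replicate 6 stood apart from both. Leukocyte markers summed to at most 7.26 CPM in any library.

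Promoter sequences are shown for the 3 members whose transcripts moved most within a human line: VDAC1 with shBAP1, VDAC2 with GSK126, and ITPR1 with both. They are RefSeq windows of GRCh38.p14, from 250 bases before to 50 bases after the annotated start, written 5′ to 3′ on the gene's strand. The windows are chr5:134004926-134005225 on the minus strand for VDAC1, chr10:75210546-75210845 on the plus strand for VDAC2 and chr3:4493098-4493397 on the plus strand for ITPR1. Capitals mark any match, on either strand, to 5 motifs: the GC box GGGCGG, the CCAAT box CCAAT, the TATA motif TATAA, the E-box CACGTG and TGCGCA, part of the binding motif of the factor NRF1.
VDAC1: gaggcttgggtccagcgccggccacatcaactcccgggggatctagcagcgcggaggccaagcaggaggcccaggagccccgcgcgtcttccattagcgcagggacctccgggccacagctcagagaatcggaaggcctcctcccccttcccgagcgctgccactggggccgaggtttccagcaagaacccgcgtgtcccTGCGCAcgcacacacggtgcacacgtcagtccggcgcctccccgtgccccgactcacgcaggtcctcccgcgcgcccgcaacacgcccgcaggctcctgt
VDAC2: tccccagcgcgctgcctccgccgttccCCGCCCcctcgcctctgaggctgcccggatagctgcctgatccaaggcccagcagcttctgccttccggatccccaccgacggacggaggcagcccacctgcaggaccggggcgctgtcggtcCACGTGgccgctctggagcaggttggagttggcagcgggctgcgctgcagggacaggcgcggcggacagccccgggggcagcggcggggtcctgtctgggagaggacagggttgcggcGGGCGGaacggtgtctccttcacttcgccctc
ITPR1: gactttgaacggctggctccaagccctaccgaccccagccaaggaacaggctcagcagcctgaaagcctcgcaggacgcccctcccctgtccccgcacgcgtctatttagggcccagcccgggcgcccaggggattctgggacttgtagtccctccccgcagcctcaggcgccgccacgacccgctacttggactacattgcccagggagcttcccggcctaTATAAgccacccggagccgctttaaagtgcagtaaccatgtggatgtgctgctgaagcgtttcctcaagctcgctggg
The VDAC1 window was 70.7% G or C with 31 CpG pairs and held 1 TGCGCA, which 8.62% of 27305 promoters hold. The VDAC2 window was 72.7% G or C with 29 CpG pairs and held 2 GC boxes (46% of promoters hold at least 1) and 1 CACGTG (7.42%). The ITPR1 window was 63.3% G or C with 19 CpG pairs and held 1 TATAA, found in 20.8% of promoters. No matches overlapped in these windows, and a match describes the letters only. The median promoter was 59% G or C with 15 CpG pairs. For ITPR3 the figures were 76% and 33 CpG pairs with 3 GC boxes. For MCU they were 59% and 20 CpG pairs, with 1 GC box and 1 CCAAT.

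The human genes lie on different chromosomes, apart from VDAC2 and MCU, which are both on chromosome 10. In the coordinates of the files, ITPR1 (ENSG00000150995) spans chr3:4493345-4847840 on the plus strand, ITPR2 (ENSG00000123104) chr12:26335352-26833194 on the minus strand and ITPR3 (ENSG00000096433) chr6:33620365-33696574 on the plus strand. VDAC1 (ENSG00000213585) spans chr5:133971871-134004975 on the minus strand and VDAC2 (ENSG00000165637) chr10:75210154-75231448 on the plus strand. VDAC3 (ENSG00000078668) spans chr8:42391624-42405937 and MCU (ENSG00000156026) chr10:72692131-72887694, both on the plus strand. All 7 overlap the GENCODE gene of the same ID on GRCh38, with the same start and end except at 1 end of ITPR1 and of MCU. All levels are for the whole gene, and reads of the VDAC pseudogenes came to at most 0.544% of their parent gene's counts. ITPR3 overlaps UQCC2, which had 482 to 678 counts in the hairpin libraries and 497 to 1634 in the drug libraries. The sources used here do not say whether counting used strand, and any part of UQCC2 in the ITPR3 values was not tested.

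The first question was what the genes did when BAP1 was knocked down. In H2810, VDAC1, the most abundant mammalian VDAC isoform in many tissues, was 3.85-fold higher with shBAP1, VDAC3 and MCU rose by less, and ITPR1 fell. VDAC1 had 353 and 344.6 CPM with shBAP1, against 87.7 and 93.6 CPM with the random hairpin. Both shBAP1 libraries were far above both random hairpin libraries, and the log2 fold change was 1.94 ± 0.05 (SE, adjusted p = 1.62e-09, edgeR quasi-likelihood test with Benjamini-Hochberg adjustment over all genes, 2 libraries per group). In that order of p it stood 5th of 15872 genes, and by size of change 430th. VDAC3, an isoform known from mouse work for its part in sperm motility, had 152.5 and 153.5 CPM with shBAP1, against 115.7 and 125.3 CPM with the random hairpin (log2 0.34 ± 0.05, adjusted p = 0.000322). MCU had 57.5 and 52.9 CPM with shBAP1, against 48.2 and 47.2 CPM with the random hairpin. Its groups did not overlap, and it was 0.21 ± 0.06 higher on the log2 scale (adjusted p = 0.0101). That call was lost without shBAP1 replicate 1 (0.16, adjusted p = 0.087).

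Of the IP3 receptors in H2810, ITPR1 was called and ITPR2 and ITPR3 were not. ITPR1, the receptor best known from cerebellar Purkinje cells, had 47.7 and 33.8 CPM with shBAP1, against 68.7 and 51.2 CPM with the random hairpin. Both shBAP1 libraries were below both controls, with a log2 change of -0.56 ± 0.15 (edgeR, adjusted p = 0.0098). The call was lost without random hairpin replicate 1 (-0.32, adjusted p = 0.116) and with DESeq2 (-0.53, adjusted p = 0.0501). ITPR2, a receptor prominent in heart and liver, had 125 and 83.5 CPM with shBAP1, against 114.4 and 76.9 CPM with the random hairpin. The groups overlapped, since replicate 1 was the higher library of each (log2 0.12 ± 0.18, adjusted p = 0.612), and the change passed the threshold without shBAP1 replicate 2 (0.39, adjusted p = 0.0366). ITPR3, the receptor tied to BAP1 at the protein level, had 167.5 and 161.6 CPM with shBAP1, against 174.9 and 139.3 CPM with the random hairpin. Here too the groups overlapped (0.07 ± 0.08, 95% interval -0.12 to 0.25, adjusted p = 0.555). Without random hairpin replicate 1 its change was 0.24 (adjusted p = 0.00475). VDAC2, the isoform that binds the apoptosis effector BAK, had 114.8 and 110.9 CPM with shBAP1, against 99.4 and 113.4 CPM with the random hairpin, and did not pass (0.09 ± 0.06, adjusted p = 0.293). Without random hairpin replicate 2 it did (0.23, adjusted p = 0.01).

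In all, 4 of the 7 genes were called in H2810, 3 higher and 1 lower, where 45.8% of all genes tested were called. Replicate 2 was lower than replicate 1 for ITPR1 by 0.49 on the log2 scale with shBAP1 and by 0.42 with the random hairpin, and for ITPR2 by 0.58 and 0.57. The replicates of the other members differed by at most 0.33. Among the 3077 genes with the longest exon sequence, of at least 8353 bases, the median of the same difference was -0.07 with shBAP1 and -0.08 with the random hairpin. Among the 3077 shortest, of up to 3438 bases, it was 0.0018 and 0.06. The part of transcript length in the ITPR1 and ITPR2 values was not tested. Summed fibroblast markers were 4153 to 4815 CPM in H2810 with shBAP1, against 5873 to 6453 with the random hairpin. COL1A1 made up most of that sum (3800 to 4430 CPM with shBAP1, 5350 to 5900 with the random hairpin), while THY1 on the same list was higher with shBAP1 (79.9 to 84 CPM, against 53 to 54.3). The part of these genes was not tested. In bulk RNA, fewer cells that express a gene and less RNA per cell cannot be told apart.

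**Figure D1:**
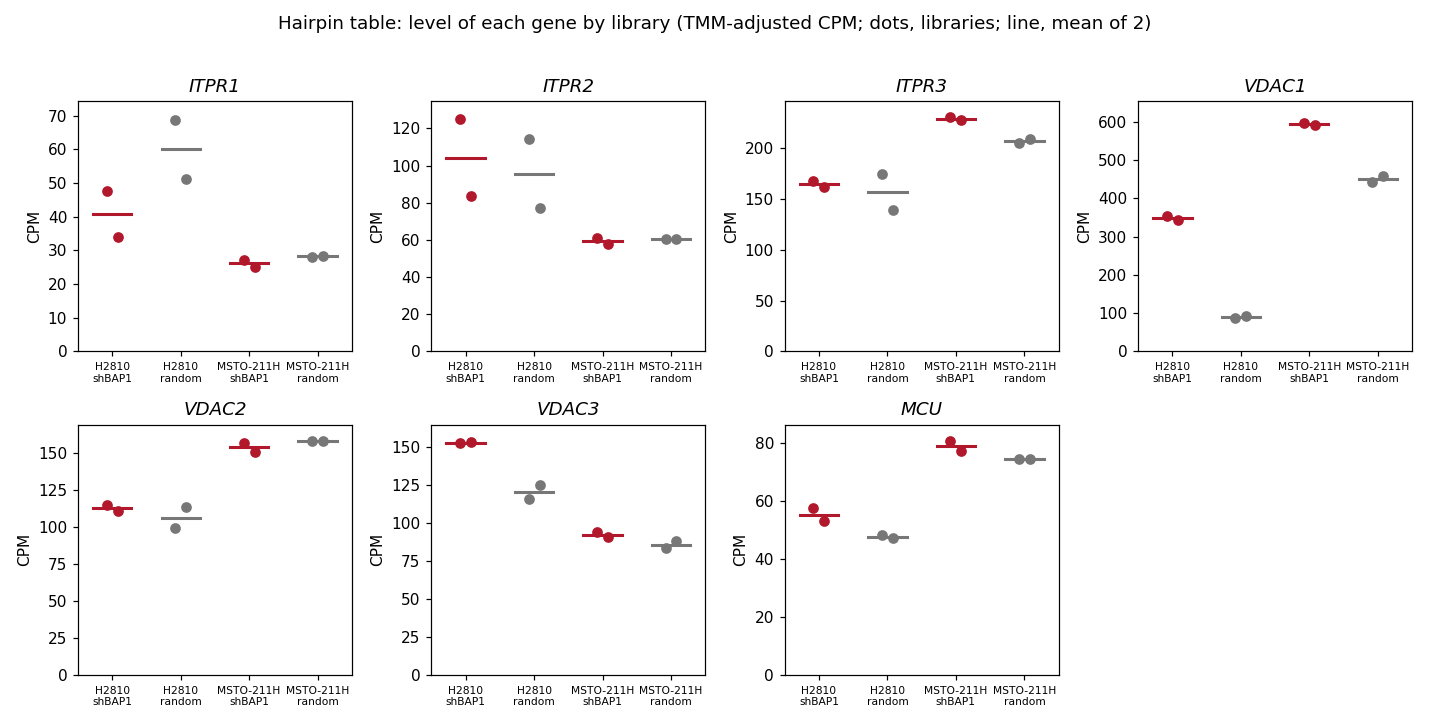
Level of each of the 7 genes (CPM, vertical axes) in every hairpin library, shBAP1 left of the random hairpin for each line; each point is 1 library. VDAC1 separates most in H2810 (353 and 344.6 CPM with shBAP1, 87.7 and 93.6 with the random hairpin), while ITPR3 overlaps between hairpins there.

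In MSTO-211H, 1 of the 7 genes was called, where 46.2% of all genes were. VDAC1 had 598 and 591.6 CPM with shBAP1, against 441.6 and 459.1 CPM with the random hairpin. Again both shBAP1 libraries were above both controls, with a log2 change of 0.40 ± 0.05 (edgeR, adjusted p = 5.09e-05). ITPR3 had 230.6 and 228.5 CPM with shBAP1, against 205.1 and 209.6 CPM with the random hairpin, which do not overlap but did not pass (0.15 ± 0.08, adjusted p = 0.174). The spread in that test is shared with the H2810 libraries. On the log2 scale, replicate 2 minus replicate 1 of ITPR3 was 0.03 with the random hairpin and -0.01 with shBAP1 in MSTO-211H. In H2810 it was -0.33 and -0.05. With only the 2 groups of MSTO-211H in the fit, ITPR3 passed at 0.16 (edgeR, adjusted p = 0.000633) and so did VDAC3 at 0.12 (adjusted p = 0.0233). VDAC3 had 94.0 and 90.9 CPM with shBAP1, against 83.8 and 88.0 CPM with the random hairpin. MCU had 80.5 and 77.2 CPM with shBAP1, against 74.4 CPM in both random hairpin libraries (0.08 ± 0.05, adjusted p = 0.246). For ITPR1, ITPR2 and VDAC2 the log2 change lay between -0.12 and -0.02 (adjusted p 0.609 to 0.943).

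The difference between the lines was tested itself. The VDAC1 response was lower in MSTO-211H than in H2810, with a log2 difference of -1.54 ± 0.07 (95% interval -1.70 to -1.39, edgeR adjusted p = 2.07e-07). VDAC3 had the other called difference (-0.24 ± 0.08, adjusted p = 0.0388), which passed in only 4 of 14 other settings and was lost without any 1 of the MSTO-211H libraries (-0.28 to -0.21). Hence 2 of 7 members were called for the difference, beside 27.7% of all genes. For ITPR1 it was 0.44 ± 0.22 (adjusted p = 0.175) with a 95% interval of -0.05 to 0.93, and for MCU -0.13 ± 0.08 (adjusted p = 0.256). The ITPR1 difference passed with no filter (0.40, adjusted p = 0.00737), without H2810 shBAP1 replicate 1 (0.71, adjusted p = 0.0071) and without H2810 random hairpin replicate 2 (0.59, adjusted p = 0.0448). ITPR3 differed by 0.08 ± 0.12 (adjusted p = 0.667), VDAC2 by -0.12 ± 0.09 (adjusted p = 0.332) and ITPR2 by -0.15 ± 0.26 (adjusted p = 0.728). Without H2810 random hairpin replicate 2 the VDAC2 difference passed (-0.26, adjusted p = 0.0269).

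Under the random hairpin, all 7 genes differed between MSTO-211H and H2810, beside 79.7% of all genes. This comparison uses the same control libraries as the 2 responses above. VDAC1 was 4.97-fold higher in MSTO-211H (log2 2.31 ± 0.05, adjusted p = 5.74e-12), and MCU (0.64 ± 0.06), VDAC2 (0.57 ± 0.06) and ITPR3 (0.40 ± 0.08) were higher too. ITPR1 was lower at -1.09 ± 0.15, ITPR2 at -0.66 ± 0.19 and VDAC3 at -0.49 ± 0.05. The ITPR2 difference was lost without H2810 random hairpin replicate 1 (-0.35, adjusted p = 0.0968). Summed mesothelial markers were 8760 to 9469 CPM in MSTO-211H with the random hairpin, against 1615 to 1678 CPM in H2810 with it. KRT8 and KRT18 made up most of those sums, and markers on the list also went the other way: WT1 was at 7.42 to 7.52 CPM in MSTO-211H, against 24.8 to 25.4 in H2810, and CALB2 at 9.40 to 12.1 CPM, against 18.9 to 21.2.

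H2810 was also grown with DMSO in the drug table, which was a separate table with separate library scaling, so its levels are set beside these with no test. VDAC1 averaged 348.8 CPM with shBAP1, 90.6 CPM with the random hairpin and 266.5 CPM with DMSO. On the log2 scale the random hairpin mean differed from the DMSO mean by -1.55, a size reached by 0.741% of 14978 genes. ITPR1 averaged 40.8 CPM with shBAP1, 60.0 CPM with the random hairpin and 27.9 CPM with DMSO, so its random hairpin mean was 1.09 above DMSO, a size reached by 2.34% of genes. In both genes the shBAP1 mean was nearer than the random hairpin mean to the DMSO mean. The same held, in CPM with shBAP1, random hairpin and DMSO, for VDAC3 (153, 120.5 and 171.1) and MCU (55.2, 47.7 and 54.9). It also held for VDAC2 (112.8, 106.4 and 156) and ITPR2 (104.3, 95.6 and 108.4), but not for ITPR3 (164.5, 157.1 and 154.8). The share of all genes for which it held is not given here. The other 5 members differed between random hairpin and DMSO by -0.55 to 0.02. What sets the random hairpin libraries apart from the DMSO libraries was not tested.

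The genes beside VDAC1 were looked up after its change was seen. Of the nearest 2 tested on each side, HSPA4 (0.32), C5orf15 (0.26) and SKP1 (0.20) rose in H2810 with shBAP1 and TCF7 was at -0.03 (adjusted p = 0.797), all smaller in size than the 1.94 of VDAC1. In MSTO-211H, C5orf15 (0.33) and SKP1 (0.26) rose, HSPA4 was at 0.10 and TCF7 at 0.13, and neither of these 2 passed. Whether VDAC1 and its neighbours move together was not tested.

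**Figure D2:**
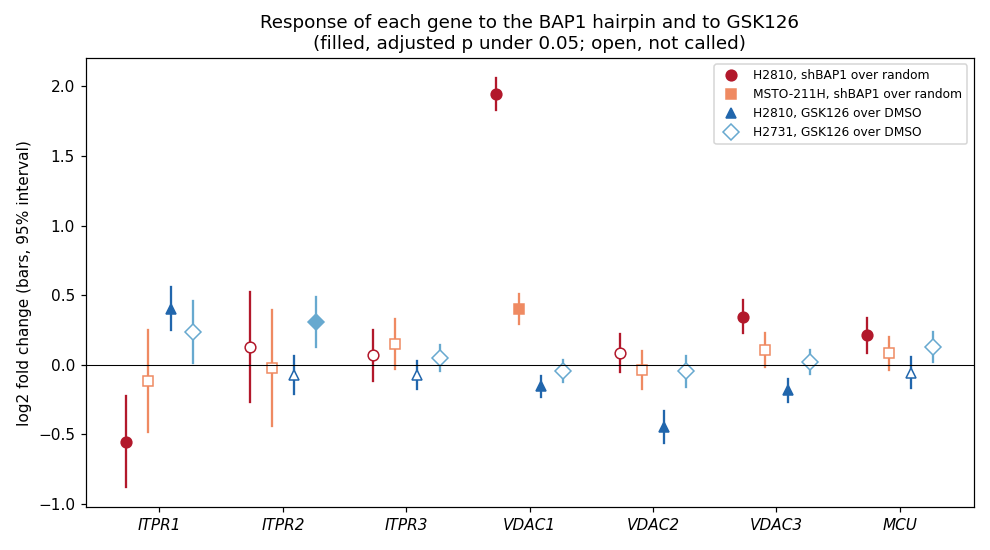
Log2 fold change of the 7 genes for shBAP1 over the random hairpin and for GSK126 over DMSO in each line; points are edgeR estimates and bars are 95% intervals. VDAC1 in H2810 with shBAP1 stands at 1.94, and every other response to a hairpin or the drug lies between -0.56 and 0.40.

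The second question was what the EZH2 inhibitor did. In H2810, the 3 VDAC genes fell and ITPR1 rose with GSK126, so that 4 of 7 genes were called (1 higher, 3 lower), beside 29.3% of all genes. VDAC2 had 111.5 and 116.3 CPM with GSK126, against 164.4 and 147.6 CPM with DMSO. The groups were well apart, at -0.45 ± 0.06 on the log2 scale (edgeR, adjusted p = 2.97e-06). VDAC1 had 241 and 236.7 CPM with GSK126, against 273.4 and 259.6 CPM with DMSO (-0.16 ± 0.04, adjusted p = 0.00282). VDAC3 had 153.4 and 147.8 CPM with GSK126, against 171.3 and 171 CPM with DMSO (-0.18 ± 0.04, adjusted p = 0.00146). The treated libraries were the lower pair for each VDAC gene. Without GSK126 replicate 2, the VDAC1 call (-0.14, adjusted p = 0.0638) and the VDAC3 call (-0.15, adjusted p = 0.0517) were lost.

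ITPR1 had 35.5 and 38.7 CPM with GSK126, against 25.8 and 30.1 CPM with DMSO, and rose by 0.40 ± 0.07 on the log2 scale (edgeR, adjusted p = 0.000351). ITPR2 had 100.8 and 105.8 CPM with GSK126, between the 96.9 and 120 CPM of the DMSO libraries (-0.07 ± 0.07, adjusted p = 0.451). ITPR3 had 145.4 and 149.1 CPM with GSK126, against 144.6 and 165 CPM with DMSO, again with overlap (-0.07 ± 0.05, adjusted p = 0.281). Without DMSO replicate 1 both were called lower, ITPR2 at -0.21 and ITPR3 at -0.16. MCU had 53.9 and 51.6 CPM with GSK126, against 54.9 and 54.9 CPM with DMSO, and did not pass (-0.06 ± 0.05, adjusted p = 0.469).

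In H2731, 1 of 7 genes was called, beside 24.7% of all genes. ITPR2 had 37.9 and 40.5 CPM with GSK126, against 32.1 and 31.3 CPM with DMSO. The libraries did not overlap (log2 0.31 ± 0.09, edgeR adjusted p = 0.0133). The call was lost without DMSO replicate 1 (0.33, adjusted p = 0.0719), without DMSO replicate 2 (0.28, adjusted p = 0.0855) and without GSK126 replicate 2 (0.26, adjusted p = 0.107). ITPR1, at 12.2 and 13.1 CPM with GSK126 against 11.4 and 10.1 CPM with DMSO, did not pass (0.23 ± 0.11, adjusted p = 0.119). MCU, at 57.9 and 61.9 CPM with GSK126 against 56.1 and 53.6 CPM with DMSO, did not pass either (0.13 ± 0.05, adjusted p = 0.0802). ITPR3 and the 3 VDAC genes lay between -0.05 and 0.05 (adjusted p 0.415 to 0.77).

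Testing the response in H2731 minus that in H2810, 3 of 7 genes were called, beside 14.7% of all genes. VDAC2 differed by 0.40 ± 0.08 (adjusted p = 0.000861), ITPR2 by 0.38 ± 0.11 (adjusted p = 0.0221) and VDAC3 by 0.20 ± 0.06 (adjusted p = 0.018). The VDAC2 difference stayed past the threshold in every alternative, at 0.32 to 0.48. That of ITPR2 was lost with limma-voom (adjusted p = 0.0539) and in 5 fits that left out 1 library: DMSO replicate 1 or 2 or GSK126 replicate 2 of H2731, and GSK126 replicate 1 or DMSO replicate 2 of H2810. Its lowest value was 0.21, without DMSO replicate 2 of H2810 (adjusted p = 0.0941). That of VDAC3 was lost with DESeq2 (adjusted p = 0.0868) and without GSK126 replicate 1 or DMSO replicate 2 of H2731 or GSK126 replicate 2 of H2810 (0.16 to 0.19). VDAC1 differed by 0.11 ± 0.05 (adjusted p = 0.195), MCU by 0.18 ± 0.07 (adjusted p = 0.111), ITPR3 by 0.12 ± 0.06 (adjusted p = 0.246) and ITPR1 by -0.17 ± 0.13 (adjusted p = 0.46). Without DMSO replicate 1 of H2810 the ITPR3 difference passed (0.21, adjusted p = 0.0084). Summed mesothelial markers were 2376 to 2395 CPM in H2810 with GSK126, against 3234 to 3420 CPM with DMSO. In H2731 they were 4172 to 4220 CPM with GSK126, against 5003 to 5455 CPM with DMSO. KRT8 and KRT18 made up most of these sums, and single markers on the list also went the other way. PDPN in H2810 was at 31.6 to 32.5 CPM with GSK126, against 19.7 to 21 with DMSO. CALB2 was at 3.8 to 4.18 CPM with GSK126 in H2731, against 2.22 to 3.04 with DMSO. In H2810 CALB2 fell (123 to 124 CPM, against 170 to 177). The part of these genes was not tested.

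**Figure D3:**
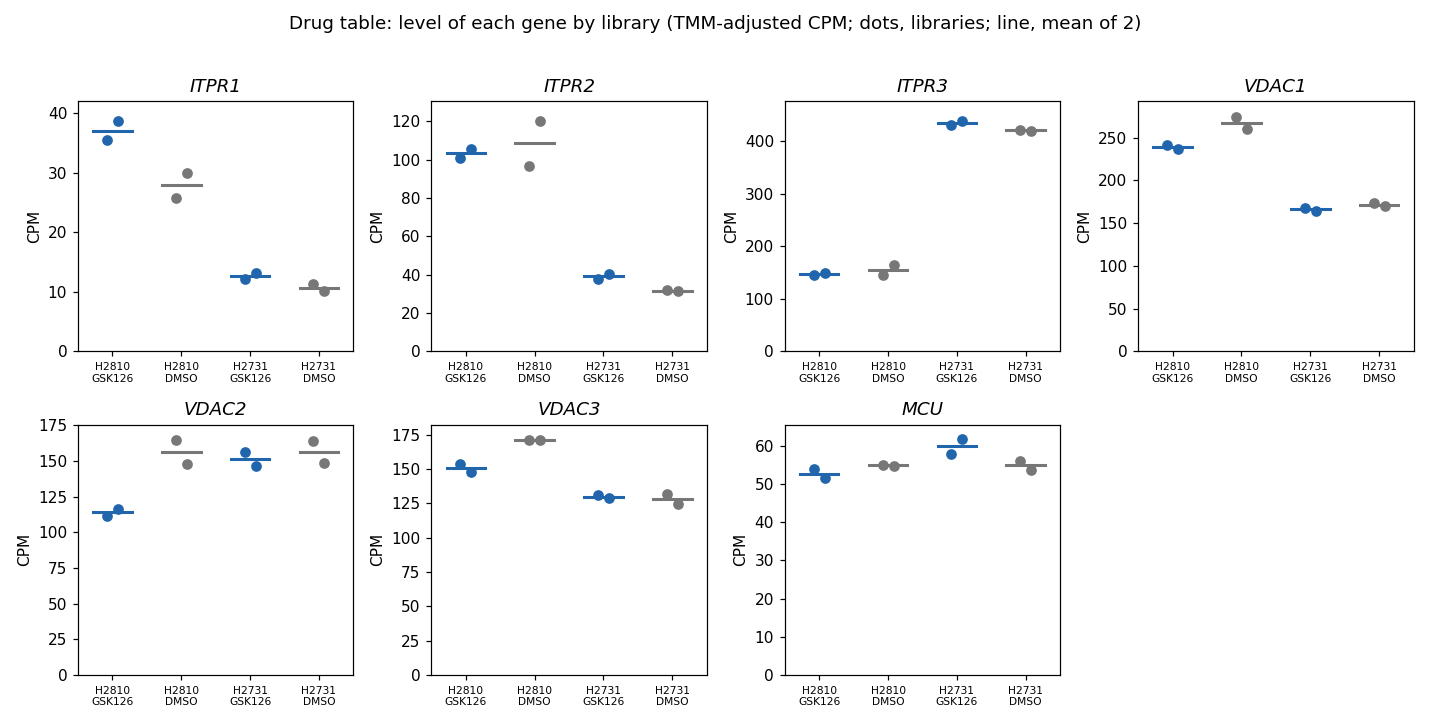
Level of each of the 7 genes (CPM, vertical axes) in every drug library, GSK126 left of DMSO for each line; each point is 1 library. VDAC2 falls in H2810 (111.5 and 116.3 CPM with GSK126, 164.4 and 147.6 with DMSO) but overlaps in H2731, and ITPR3 is at 419 to 439.4 CPM in the 4 H2731 libraries.

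Under DMSO, 5 of 7 genes differed between H2731 and H2810, 1 higher and 4 lower, beside 82.2% of all genes; the DMSO libraries are those of the responses above. ITPR3 had 422.3 and 419 CPM in H2731, against 144.6 and 165 CPM in H2810. It was 2.71-fold higher in H2731 (log2 1.44 ± 0.05, edgeR adjusted p = 1.49e-16). ITPR2 had 32.1 and 31.3 CPM in H2731, against 96.9 and 120 CPM in H2810 (-1.78 ± 0.08, adjusted p = 2.05e-14). ITPR1 had 11.4 and 10.1 CPM in H2731, against 25.8 and 30.1 CPM in H2810 (-1.38 ± 0.09, adjusted p = 2.61e-11). So the receptors went opposite ways between these lines, with ITPR3 alone higher. VDAC1 had 173.1 and 170 CPM in H2731, against 273.4 and 259.6 CPM in H2810 (-0.64 ± 0.04), and VDAC3 was also lower in H2731 (-0.42 ± 0.04). For VDAC2 the difference was 0.01 (95% interval -0.11 to 0.12, adjusted p = 0.93) and for MCU 0.00 (-0.11 to 0.11, adjusted p = 0.97). With 1 line of each kind, BAP1 status and everything else that differs between the lines cannot be told apart.

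Levels per length set the members side by side within a group, and their order depends on the length used. Values here are mean CPM per kilobase, first of all annotated exon sequence and then of the MANE Select transcript, a choice added after the data were seen. In H2731 with DMSO, VDAC1 was at 56.3 by the first and 93.3 by the second, VDAC2 at 55.7 and 103.3, VDAC3 at 40.2 and 90.2, and ITPR3 at 42.6 and 46.3. MCU followed at 12.1 and 18.7, ITPR2 at 2.28 and 2.52 and ITPR1 at 0.334 and 1.08. ITPR3 was thus just above VDAC3 by exon length and well below it by transcript length. VDAC1 and VDAC2 did not differ beyond their spread by exon length (SD 0.735 and 3.87), while by transcript length VDAC2 was above VDAC1 (SD 7.17 and 1.21).

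In H2810 with DMSO, VDAC1 was the highest by both lengths (87.4 and 144.9). VDAC2 (55.7, SD 4.25) and VDAC3 (53.8, SD 0.0566) did not differ beyond their spread by exon length, while VDAC3 was above VDAC2 by transcript length (120.7 against 103.2). ITPR3 was at 15.7 and 17.1, MCU at 12.1 and 18.7, ITPR2 at 7.80 and 8.63 and ITPR1 at 0.870 and 2.82, so ITPR3 was above MCU by exon length only. MSTO-211H with the random hairpin had VDAC1 at 147.7 and 244.9, VDAC2 at 56.5 and 104.7 and VDAC3 at 27.0 and 60.6. In H2810 with the random hairpin, VDAC1 was below both other VDAC genes by either length (29.7 and 49.3). In H2810 with shBAP1 it was above both by either length, at 189.7 by transcript length.

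Of the summed level of the 3 receptors per exon length, ITPR3 made up 94.1% to 94.3% in H2731 with DMSO, against 63.6% to 65.3% in H2810 with DMSO. It made up 79.9% to 80.3% in MSTO-211H with the random hairpin. Knockdown of BAP1 left ITPR3 at 61.8% to 69.9% in H2810, against 63.1% to 66.5% with the random hairpin. In MSTO-211H it was 81.7% to 82.4% with shBAP1, against 79.9% to 80.3% with the random hairpin. The share of VDAC1 among the VDAC genes was 56.3% to 56.6% in H2810 with shBAP1, against 27.8% to 28.6% with the random hairpin (50.8% to 51.1% and 23.7% to 24.5% by transcript length). In MSTO-211H it was 69.6% to 70.2% with shBAP1, against 63.6% to 64.1% with the random hairpin. The 2 lengths differ most for ITPR1, whose annotated exons cover 32120 bases while its MANE Select transcript has 9908. With that transcript length, ITPR1 made up 12.3% to 14.5% in H2810 with shBAP1, against 19.4% to 19.6% with the random hairpin, in place of 4.50% to 5.41% and 7.51% to 7.61%.

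**Figure D4:**
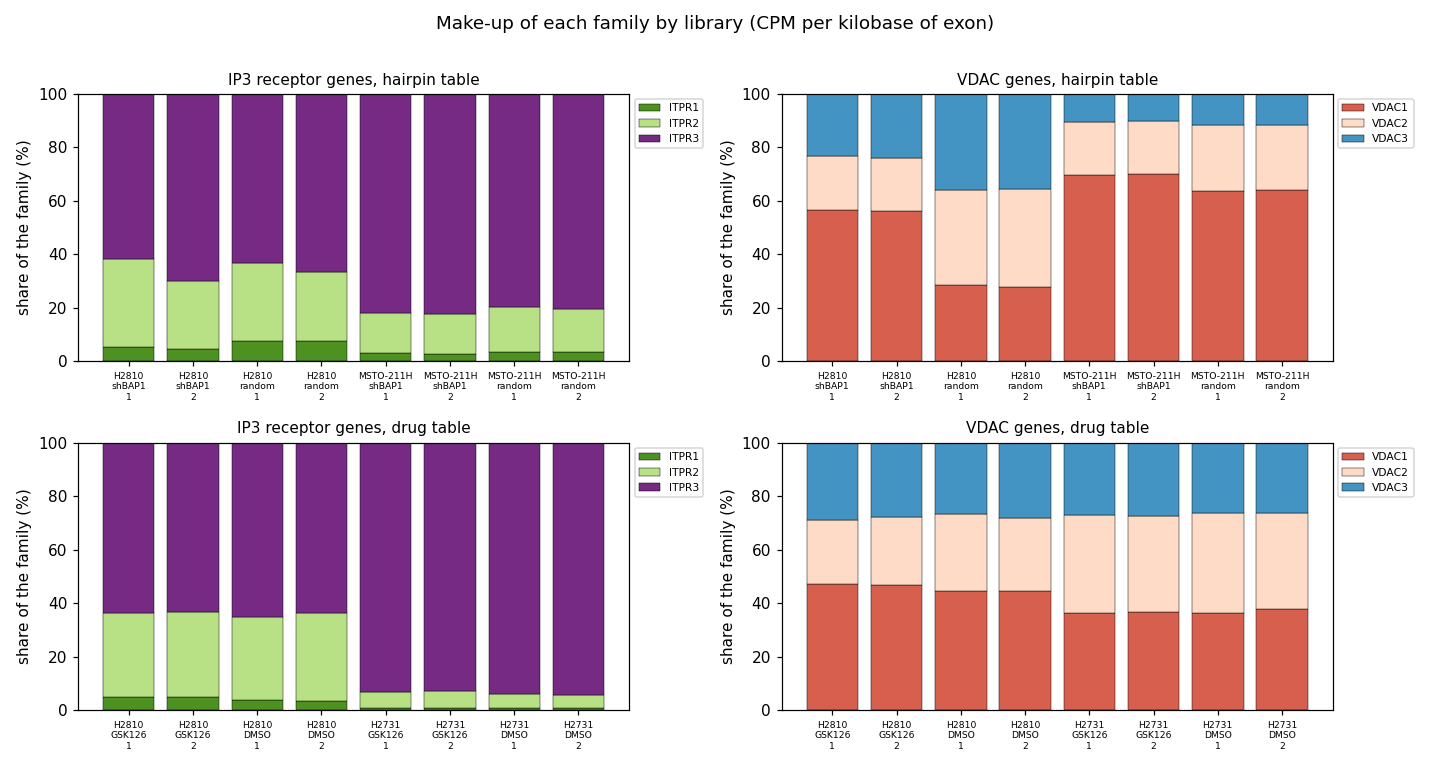
Share of each IP3 receptor gene in the summed level of the 3 (CPM per kilobase of exon, percent), and likewise of each VDAC gene, for every human library. ITPR3 takes 94.1% to 94.3% in H2731 with DMSO, and VDAC1 takes 56.3% to 56.6% in H2810 with shBAP1 against 27.8% to 28.6% with the random hairpin.

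The mouse cells asked the BAP1 question by genotype, and none of the 7 genes was called by edgeR (adjusted p 0.827 to 0.973), where 0% of 12225 genes were. At an unadjusted p under 0.05 there were 823 genes, and DESeq2 called 302, while limma-voom, RLE scaling and both filters called none and a fit with the replicate number as a block called 1. Itpr3 had 181.9, 183.8 and 49.7 CPM in BNC cells, against 209.4 and 121.8 CPM in NC cells. BNC replicate 6 was the low library, and the groups overlapped (log2 -0.26 ± 0.62). Vdac2 had 225.5, 226.3 and 306.3 CPM in BNC cells, against 301.4 and 364 CPM in NC cells. It came nearest to a change (-0.40 ± 0.22, unadjusted p = 0.136), and BNC replicate 6 lay inside the NC range.

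Vdac1 had 456.5, 467.4 and 449 CPM in BNC cells, against 457.8 and 579.3 CPM in NC cells. Itpr1 had 62.5, 65.2 and 47.6 CPM in BNC cells, against 37.8 and 91.9 CPM in NC cells, so the BNC values lay inside the NC range. Mcu had 56.7, 49.1 and 76.9 CPM in BNC cells, against 38.7 and 71.7 CPM in NC cells. Itpr2 had 10.4, 10.6 and 21.3 CPM in BNC cells, against 16.4 and 15.8 CPM in NC cells, and Vdac3 had 131, 123.6 and 148.5 CPM in BNC cells, against 130.8 and 105.8 CPM in NC cells. Every one of the 7 overlapped between genotypes. For 5 of them (Itpr1, Itpr3, Vdac1, Vdac3 and Mcu) the NC libraries differed from each other by more than the group means did. The same shares over all genes are not given here, so these counts describe the values of the 7 genes only. Itpr3 made up 83.1%, 82.7% and 57.7% of the receptors per length in BNC cells, against 88% and 69% in NC cells. The spread between mouse replicates was wide, with a common biological coefficient of variation of 0.539, against 0.0533 in the hairpin table and 0.0311 in the drug table. Summed mesothelial markers were 133.2 to 958.5 CPM in BNC cells, against 993.5 to 2624 CPM in NC cells. Single markers did not all go that way: Wt1 was at 38.2 to 130 CPM in BNC cells, against 8.54 to 109 in NC cells. Msln was at 0.351 to 561 CPM in BNC cells, against 519 to 880, and Krt19 at 0.176 to 113, against 288 to 374. The part of these markers was not tested.

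**Figure D5:**
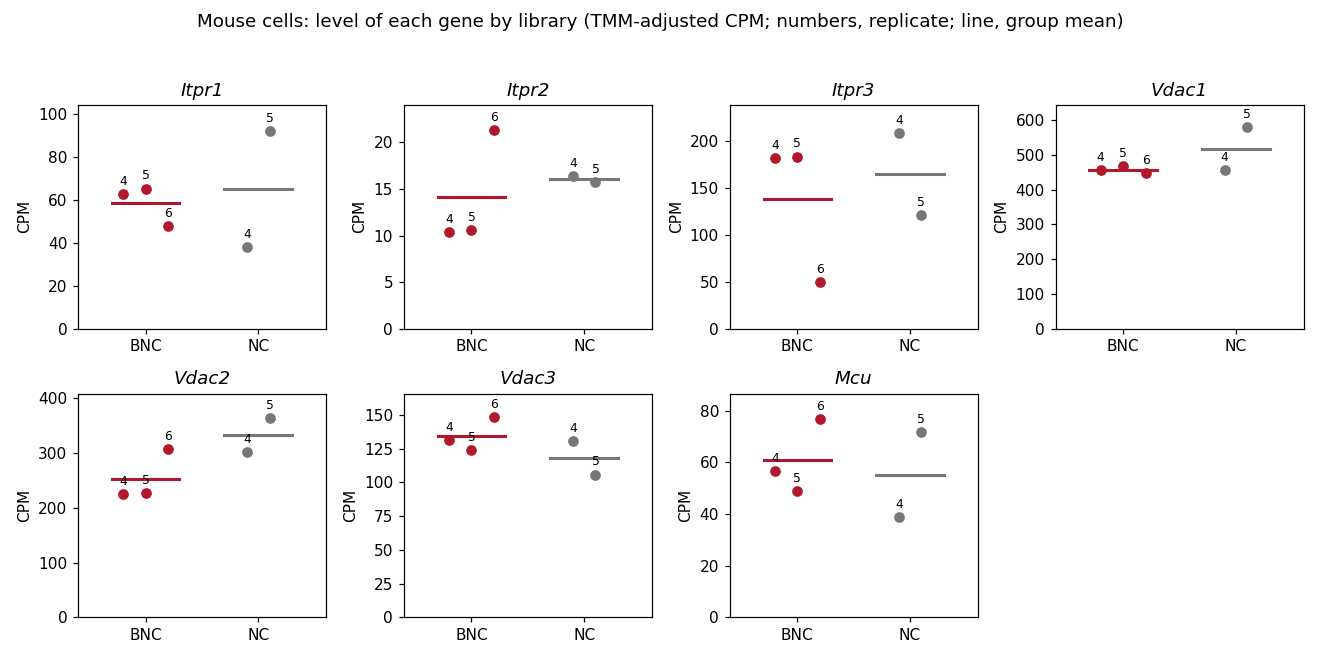
Level of each of the 7 genes (CPM, vertical axes) in every mouse library, BNC left of NC; each point is 1 library. The genotypes overlap for all 7 genes, and Itpr3 in BNC replicate 6 (49.7 CPM) lies below the other BNC libraries (181.9 and 183.8 CPM).

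The rest of the pathway was followed in 11 lists of 90 genes. In H2810 with shBAP1, 33 of 83 tested genes were higher and 13 lower (median log2 0.12), beside 3576 higher and 3701 lower, or 45.8% called, of all 15872 genes (median -0.03). In MSTO-211H, 31 of 83 were higher and 16 lower (median 0.06), beside 3440 higher and 3887 lower, or 46.2% called, of all genes (median -0.02). The lists are small, and their counts are to be read against those shares. Genes used here for mitochondrial mass were 6 higher and 0 lower of 7 in H2810 and 4 higher and 0 lower of 7 in MSTO-211H, beside 45.8% and 46.2% of all genes called in either direction. TOMM40, the channel of the outer-membrane protein import complex, rose by 0.69 ± 0.05 on the log2 scale in H2810 and by 0.56 ± 0.05 in MSTO-211H. TOMM20, an import receptor, had 178.1 and 175 CPM in H2810 with shBAP1, against 112.9 and 113.7 CPM with the random hairpin. Its rise of 0.64 ± 0.05 there (edgeR, adjusted p = 1.06e-06) was larger than in MSTO-211H by a tested difference of -0.52 ± 0.06. The 1.94 of VDAC1 in H2810 stands beside these values on the same scale, and any part of mitochondrial mass in it was not tested.

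Outer-membrane partners of the VDACs gave 4 higher and 0 lower of 5 in H2810 and 3 higher and 0 lower of 5 in MSTO-211H, where 45.8% and 46.2% of all genes were called. The hexokinases HK1 (0.49) and HK2 (0.46), which dock on VDACs, rose in H2810, and the apoptosis effector BAK1 (0.49) rose in MSTO-211H. Genes of the contacts between endoplasmic reticulum and mitochondria were 6 higher and 0 lower of 11 in H2810, and 6 higher and 1 lower in MSTO-211H, against the same shares of all genes (45.8% and 46.2%). The tether MFN2 rose by 0.38 ± 0.05 in each line. HSPA9, the mitochondrial chaperone that links IP3 receptors to VDAC1, rose in H2810 by 0.39 ± 0.05, and its response was lower in MSTO-211H (difference -0.54 ± 0.08).

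The partners that regulate or degrade IP3 receptors included 4 higher and 6 lower of 15 in H2810 and 4 higher and 3 lower in MSTO-211H. With 45.8% and 46.2% of all genes called, the share in MSTO-211H is at the background. ERLIN1, part of the complex that sends activated IP3 receptors to degradation, had 41.6 and 38.8 CPM in H2810 with shBAP1, against 104.3 and 113.3 CPM with the random hairpin. In MSTO-211H it had 16.7 and 15.7 CPM with shBAP1, against 57.9 and 56.3 CPM with the random hairpin. It thus fell in both lines, by 1.44 ± 0.06 and by 1.82 ± 0.07 on the log2 scale (edgeR adjusted p = 3.07e-08 and 1.48e-08). PML, which has been described at these contacts with ITPR3, rose in H2810 (0.63 ± 0.06).

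Upstream of the receptors, genes of IP3 production gave 2 higher and 3 lower of 10 in H2810 and 4 and 4 in MSTO-211H. Over all genes, 45.8% were called in H2810 and 46.2% in MSTO-211H. The G protein GNA11 fell in both (-0.75 and -0.71). The phospholipase PLCB4 had 13.8 and 15.3 CPM in MSTO-211H with shBAP1, against 45.0 and 51.0 CPM with the random hairpin, a change of -1.72 ± 0.08. None of the 4 tested genes of IP3 removal was called in either line.

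Among partners of MCU, 1 was higher and 0 lower of 6 in H2810, and 1 higher and 2 lower in MSTO-211H. The shares called over all genes were 45.8% and 46.2%. MCUB, a pore subunit that limits uptake, had 6.73 and 7.09 CPM in H2810 with shBAP1, against 3.86 and 4.62 CPM with the random hairpin (0.71 ± 0.14). In MSTO-211H it had 6.16 and 7.45 CPM with shBAP1, against 12.6 and 12 CPM with the random hairpin (-0.85 ± 0.12). MCUB thus rose in one line and fell in the other (tested difference -1.56 ± 0.19, edgeR adjusted p = 0.000128). MICU3, a gatekeeper of the pore, rose in MSTO-211H (0.84 ± 0.11). PPIF, or cyclophilin D, which opens the permeability transition pore under calcium load, had 188.8 and 194.8 CPM in H2810 with shBAP1, against 64.1 and 68.5 CPM with the random hairpin (1.53 ± 0.05). Its response was lower in MSTO-211H (difference -1.13 ± 0.07). Carriers and efflux genes as a list were 5 higher and 3 lower of 10 in H2810 and 4 higher and 3 lower in MSTO-211H. Beside these stand the same 45.8% and 46.2% of all genes.

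The lists for the stores and the plasma membrane were short, beside 45.8% of all genes called in H2810 and 46.2% in MSTO-211H. Genes of release and refilling were 2 higher and 0 lower of 6 in H2810 and 3 higher and 0 lower in MSTO-211H, with the pump ATP2A2 up in both (0.35 and 0.32). Store-operated entry genes were 2 higher and 1 lower of 6 in H2810 and 2 higher and 2 lower in MSTO-211H. The channel ORAI1 rose in both (0.47 and 0.69), ORAI3 fell in H2810 (-1.25 ± 0.13) and the sensor STIM1 fell in MSTO-211H (-0.73 ± 0.09). Of 3 extrusion genes, 1 was higher in H2810 (ATP2B1, 0.33) and 1 lower in MSTO-211H (SLC8A1, -1.88).

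With GSK126, 21 of 86 tested pathway genes were higher and 11 lower in H2810, and 16 higher and 12 lower in H2731, beside 29.3% and 24.7% of all genes called. PDP1, the calcium-activated phosphatase of pyruvate dehydrogenase, had 143.3 and 151.6 CPM in H2810 with GSK126, against 106.5 and 105.5 CPM with DMSO. In H2731 it had 112.1 and 113.9 CPM with GSK126, against 64.0 and 65.0 CPM with DMSO. It rose in both, by 0.48 ± 0.04 and 0.81 ± 0.04 on the log2 scale, and by more in H2731 (tested difference 0.33 ± 0.06). BCL2L1, the BCL-XL gene, whose product binds IP3 receptors and VDAC1, had 84.9 and 83.2 CPM in H2810 with GSK126, against 115.8 and 115.4 CPM with DMSO. It fell there by 0.46 ± 0.04 and in H2731 by 0.23 ± 0.04 (edgeR adjusted p = 4.33e-08 and 7.06e-05). Of 7 mitochondrial mass genes, 0 were higher and 1 lower in H2810 (median log2 -0.045). In H2731, 0 were higher and 2 lower (median -0.088), with the same 29.3% and 24.7% of all genes beside them. Citrate synthase, CS, on that list, fell in H2810 (-0.26) and in H2731 (-0.21). The pump ATP2B1 rose in both lines (0.23 and 0.41), as did ORAI3 (0.44 and 0.50).

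Between lines, mitochondrial mass genes were higher in H2731 than in H2810 (6 higher and 0 lower of 7, median 0.75) and in MSTO-211H than in H2810 (7 of 7, median 0.86). IP3 receptor partners were 3 higher and 11 lower of 15 in H2731 and 2 higher and 11 lower in MSTO-211H. In these comparisons 82.2% and 79.7% of all genes were called. Over all genes, 6644 were higher and 6509 lower in H2731, and 6189 higher and 6466 lower in MSTO-211H. The lists are small and were not tested against these shares. BCL2L1 was among the higher receptor partners, at 1.74 ± 0.04 in H2731 and 2.44 ± 0.06 in MSTO-211H against H2810. PLCB4 was also higher and PLCG2 lower in both, by 2.08 and -2.36 in H2731 and by 2.41 and -3.30 in MSTO-211H. ITPKB, a kinase that removes IP3, was lower in H2731 (-5.19 ± 0.14), and ITPKA was higher (4.06 ± 0.18). In the mouse, 0 of 79 tested pathway genes were called.

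Genes with the pattern most like each receptor were sought over the 8 libraries of each human table, by the lower of the 2 Pearson correlations among 11888 genes. For ITPR1 they were CDC42BPA (0.976 with hairpins, 0.973 with the drug), ZFYVE1 (0.967 and 0.979) and ZHX3 (0.965 and 0.970). For ITPR2 they were ARHGEF12 (0.993 and 0.994), TTC28 (0.984 and 0.990) and KIF1B (0.972 and 0.981). For ITPR3 they were BAZ2A (0.980 and 0.984), FAT1 (0.974 and 0.998) and TTLL4 (0.973 and 0.977). These libraries form 2 lines per table, and shared line differences enter every value; they are a description with no test.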

How the data were processed

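Per the labels' protocols, RNA was selected by poly-A, prepared with a TruSeq kit and read single-end on a HiSeq. Per the submitters' processing notes, the authors used HTSeq, DESeq2, TopHat and TopHat2 2.0.12, with mm10 and GRCm38 as mouse builds. Human build, annotation release and strand setting are not given in the sources used here. The deposited tables hold raw counts, 1 row per Ensembl gene and 1 column per library, with no normalization by the authors. A line of 1 table names no gene, holds 0 counts and was left out.

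The 3 tables were analysed separately, every group of a table in 1 fit, with the quasi-likelihood F test of edgeR 4.0.16 (R 4.3.3, filterByExpr, TMM scaling). Calls are at a Benjamini-Hochberg adjusted p under 0.05, taken over the whole table. The SE is the log2 fold change over the square root of F. Levels are CPM, divided where said by the union of GENCODE exon lengths in kilobases. The scripts were tested on simulated data.

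The members, gene lists and tests were chosen with earlier results of these data known. Named were all members, the targeted genes and, from each list and comparison, up to 2 called genes of smallest p; only some are printed. The genes most like each receptor were sought among genes of log2 CPM of at least 1 on average.

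The alternatives were RLE scaling, no filter, a filter of 50 counts in 2 libraries, DESeq2 1.42.0, voom in limma 3.58.1, the 2 groups compared alone, a block for the replicate number, and leaving out each library in turn. Added after seeing the data were BNC replicates 4 and 5 summed into 1 library and levels and shares by MANE Select length. Replicate libraries of every group differed beyond counting error (chi-square per degree of freedom 2.09 to 331).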

Additional observations from a re-analysis of the deposited data

Results flagged for a closer look

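For 5 responses the difference between lines was itself past the threshold (edgeR interaction, adjusted over all genes). With shBAP1, MSTO-211H minus H2810, VDAC1 differed by -1.543 on the log2 scale: it rose with shBAP1 in both lines, by 1.94 in H2810 and by 0.40 in MSTO-211H. VDAC3 differed by -0.239, with a rise in H2810 that passed and values in MSTO-211H that did not. With GSK126, H2731 minus H2810, VDAC2 differed by 0.403, ITPR2 by 0.38 and VDAC3 by 0.205. VDAC2 and VDAC3 fell in H2810 and not detectably in H2731, while ITPR2 rose in H2731. The random hairpin libraries of H2810 enter both hairpin differences, and their VDAC1 level is the one that lies far below that of H2810 with DMSO. The DMSO libraries of H2810 enter all 3 drug differences, and they differed from each other more than the other drug replicates did.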

How the results depend on the processing

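The calls of VDAC1 with shBAP1 in both lines, their difference, and VDAC2 with GSK126 in H2810 held in every alternative run, at log2 1.90 to 2.03, 0.37 to 0.43, -1.63 to -1.498 and -0.53 to -0.37. Of 2541 values recomputed under an alternative, 2385 kept their direction and side of the threshold, 107 lost a call, 15 gained one and 34 changed sign.

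With DESeq2, genes called were 302 in the mouse, 2783 for GSK126 in H2810, 2123 in H2731 and 1401 for their difference, against 0, 4681, 3959 and 2358 by edgeR. Leaving out 1 library gave 2338 to 3185 genes for GSK126 in H2731. Members called for the hairpin difference were 1 with DESeq2, with RLE and with the stricter filter, and 1 to 4 with a library left out. In MSTO-211H they were 3 with only the groups compared. With a library left out, members called were 2 to 6 for GSK126 in H2810, 0 to 1 in H2731 and 1 to 4 for the drug difference.

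Signs turned only where no call stood. The replicate block gave Itpr1 0.11, Itpr3 0.20 and Mcu -0.001, and 1 called gene in the mouse. DESeq2 and RLE each gave ITPR2 0.008 in MSTO-211H with shBAP1. For H2731 against H2810, MCU was -0.006, -0.015 and -0.019, and VDAC2 -0.003, -0.012 and -0.016, with no filter, only the groups compared and the stricter filter. With 1 library left out, mouse values ran from -0.65 to 0.63 for Itpr1, -0.62 to 0.002 for Itpr2, -0.60 to 0.19 for Itpr3 and -0.23 to 0.65 for Mcu. Hairpin differences ran from -0.11 to 0.49 for BAP1, -0.47 to 0.17 for ITPR2 and -0.095 to 0.20 for ITPR3. Responses to shBAP1 ran in H2810 from -0.19 to 0.45 for ITPR2, -0.044 to 0.24 for ITPR3 and -0.005 to 0.23 for VDAC2, and in MSTO-211H from -0.058 to 0.014 for ITPR2. Responses to GSK126 ran in H2810 from -0.21 to 0.093 for ITPR2 and -0.16 to 0.027 for ITPR3, and in H2731 from -0.12 to 0.025 for VDAC2 and -0.023 to 0.064 for VDAC3. For H2731 against H2810, MCU ran from -0.029 to 0.032 and VDAC2 from -0.085 to 0.085. The cause was not tested.

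Replicate numbers were not taken to pair libraries: residuals of same-numbered libraries within a line correlated at 0.0365 to 0.0926, and in the mouse at 0.303 and -0.264. Under the replicate block the ITPR1 hairpin difference passed (0.44, adjusted p = 0.0348).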
